A study of Rattus norvegicus with 16 samples.

Results

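Kruppel-like factors are transcription factors that bind GC-rich and CACCC-rich DNA through zinc fingers at the end of the protein. The 10 family genes described here are Klf2, Klf3, Klf4, Klf6, Klf9, Klf10, Klf11, Klf12, Klf13 and Klf15, taken by symbol from a table of 22587 gene symbols, and all 10 were found. They were measured in liver of male rats aged 13 weeks, in 16 RNA libraries. The strain is given as Wistar-Wyoto, probably a misspelling of Wistar-Kyoto. The groups were adrenalectomized rats in ozone (ADREX ozone, libraries 81 to 84), adrenalectomized rats in air (ADREX air, 65 to 68), sham-operated rats in ozone (SHAM ozone, 17 to 20) and sham-operated rats in air (SHAM air, 1 to 4), with 4 libraries each. Ozone was given at 0.8 ppm, and exposure to ozone or air lasted 4 hours. Surgery removed both adrenal glands whole, so cortex hormones such as corticosterone and medulla hormones such as adrenaline were lost together. The labels mention no hormone replacement. Groups follow the library titles, since a treatment field gives ozone for the 4 ADREX air libraries too.

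Several family members answer to hormones. KLF9 is induced by glucocorticoids and thyroid hormone, and KLF15 is induced by glucocorticoids and by fasting and promotes amino acid breakdown and glucose synthesis in liver. KLF10 and KLF11 were first known as early targets of transforming growth factor beta (TGF-beta). KLF2 and KLF4 act in endothelium, KLF6 is an early response factor of liver injury, and KLF3 and KLF12 repress genes through the corepressor CtBP.

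Values are normalized read counts, meaning reads per gene divided by the authors' size factor for each library. Libraries held 8372891 to 14096246 reads, and the 3 reads that a count of 0 still allows came to 3.14 to 6.02 normalized counts. That limit covers counting error only, because no molecular identifiers were counted. The 6 hepatocyte markers were all present, with summed levels of 93142 to 182038 RPM (reads per 1000000 reads) over the 16 libraries. All libraries also held neuron and oligodendrocyte transcripts. Their 25 markers summed to 820 to 4686 RPM in ADREX ozone, 271 to 1190 in ADREX air, 76.5 to 2900 in SHAM ozone and 45.1 to 838 in SHAM air. Libraries 82, 18 and 81 were the highest, and in the 4 pairwise comparisons the exact two-sided permutation test gave p = 0.0857 to 0.286. Nothing says that libraries of a group came from separate animals, so p-values measure only the spread between these libraries. In bulk tissue, fewer cells of a type and less RNA per cell cannot be told apart.

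Of the 10 genes, 9 passed the filter on low values and entered the limma test. Limma called 3 changes at an adjusted p under 0.05. Klf12 fell with ozone in SHAM rats, Klf4 was higher in ADREX than in SHAM rats in air, and Klf10 was lower in ADREX than in SHAM rats under ozone. In each comparison that was 1 of 9 members, beside 1.58% of all 12791 genes tested for ozone in SHAM, 3.53% for adrenalectomy in air and 12.5% for adrenalectomy under ozone. For ozone in ADREX 0 of 9 members passed by limma, edgeR or DESeq2, beside 0.125% of all genes called by limma. A raw limma p below 0.05 was found for 2 of 9 members, beside 17.8% of all genes. For the difference between the ozone effects 0 members passed by any of these tools, beside 0.109% of all genes called by limma. A raw p below 0.05 was found for 2 of 9, beside 12.9% of all genes. For ozone in SHAM it was 3 of 9, beside 18.4% of all genes. For adrenalectomy it was 5 of 9 in air and 2 of 9 under ozone, beside 20.2% and 31.2% of all genes.

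**Figure D1:**
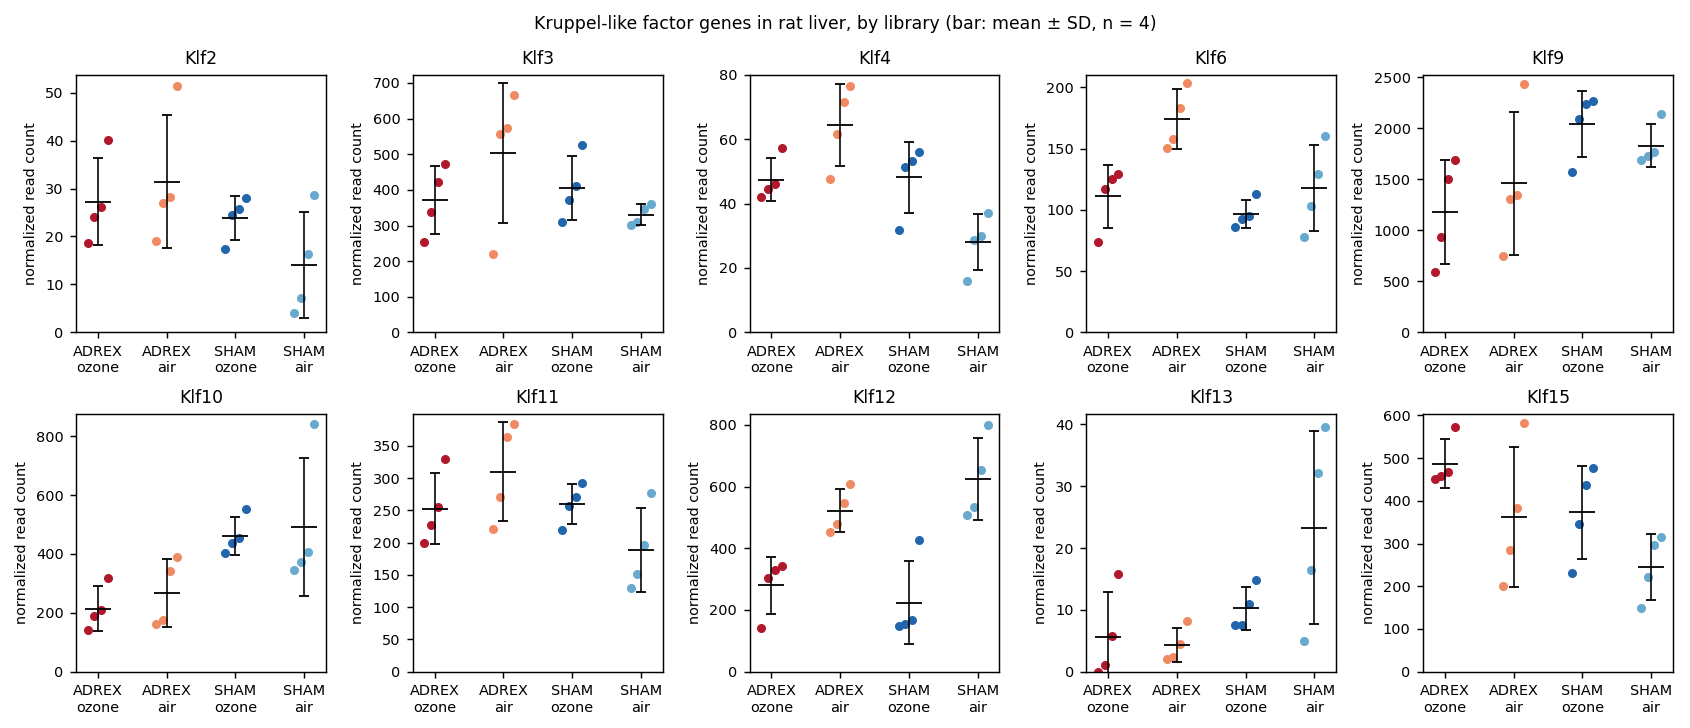
Normalized read counts of the 10 genes on axes that start at 0, with 1 point per library, ordered by value within a group, and bars for mean ± SD (n = 4). Klf12 separates ozone from air in both surgeries, Klf4 is lowest in SHAM air, and Klf10 is lower in ADREX ozone than in SHAM ozone.

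Klf12, a repressor first described at the promoter of the transcription factor AP-2, had the largest log2 change with ozone of the 9 tested members, in SHAM and in ADREX rats. SHAM ozone libraries 17 to 20 had 148, 166, 427 and 155 normalized counts, against 507, 800.0, 535 and 654 in SHAM air libraries 1 to 4. Every ozone library lay below every air library, and library 19 stood well above the other ozone libraries. The means were 224 ± 135 and 624 ± 133 (SD, n = 4 each), a log2 change of −1.61 ± 0.32 (SE, adjusted p = 0.0199).

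In adrenalectomized rats Klf12 had 303, 142, 343 and 328 normalized counts in ADREX ozone libraries 81 to 84, against 547, 607, 479.5 and 452 in ADREX air libraries 65 to 68. These groups did not overlap either. The log2 change was −0.97 ± 0.32 and missed the threshold (unadjusted p = 0.00786, adjusted p = 0.167). The difference between the ozone effects, ADREX minus SHAM, was 0.64 ± 0.45 with a 95% interval of −0.32 to 1.60 (adjusted p = 0.556), so a smaller effect in ADREX was not shown. Ordered by mean, SHAM air and ADREX air overlapped at the top and ADREX ozone and SHAM ozone overlapped at the bottom, with no overlap between the air pair and the ozone pair. Adrenalectomy gave log2 differences of −0.24 in air and 0.39 under ozone (adjusted p = 0.683 and 0.421).

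The Klf12 call in SHAM was lost without any of 5 single libraries. The adjusted p was 0.0855 without SHAM ozone 17, 0.0517 without SHAM ozone 18, 0.091 without SHAM ozone 20, 0.079 without SHAM air 2 and 0.0554 without SHAM air 4, with log2 changes of −1.46 to −1.58. In these fits, which had fewer libraries, calls over all genes fell from 202 to 50, 129, 38, 49 and 102. Without SHAM ozone 19 the Klf12 change was −1.97. EdgeR (adjusted p = 0.0403) and DESeq2 (adjusted p = 0.00129) on the recovered reads called it too. The 9 sinusoidal endothelial markers summed to 265 to 440.0 RPM in SHAM ozone and 453 to 504 in SHAM air (exact two-sided permutation test, p = 0.0286, the smallest that 4 against 4 allows, and adjusted p = 0.257 over 36 tests of marker sums). The 5 bile duct cell markers summed to 10.7 to 18.1 RPM in SHAM ozone and 5.14 to 9.49 in SHAM air, with the same p and adjusted p. The part of these cells in the Klf12 result was not tested.

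Klf3, the other CtBP-binding repressor among the 10 genes, averaged 372 ± 95.8 normalized counts in ADREX ozone, 504 ± 196 in ADREX air, 405 ± 90.9 in SHAM ozone and 331 ± 28.5 in SHAM air. All neighbours in the order of its means overlapped, and it passed in no comparison. ADREX air library 67, at 219, lay below the other 3 libraries of its group, which had 557.8 to 666. Without that library Klf3 was higher in ADREX air than in SHAM air by 0.85 (adjusted p = 0.0251), against 0.49 ± 0.29 with it (adjusted p = 0.34). Calls over all genes in this comparison rose from 451 to 824 without it.

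Klf4, an activator known from endothelium and epithelium, was higher after adrenalectomy in air. ADREX air libraries had 76.5, 61.4, 71.5 and 47.7 normalized counts, against 37.2, 30.0, 28.8 and 16.1 in SHAM air. The groups did not overlap, and the means were 64.3 ± 12.7 and 28.0 ± 8.80 (log2 1.21 ± 0.28, adjusted p = 0.0232). Counts behind these values were low, at 39 to 65 reads in ADREX air and 8 to 25 in SHAM air.

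Under ozone the Klf4 groups overlapped. ADREX ozone libraries had 57.2, 41.9, 46.1 and 44.6 normalized counts and SHAM ozone libraries had 51.3, 31.8, 53.3 and 56.0, a log2 difference of 0.00 with a 95% interval of −0.58 to 0.59. With ozone the log2 change was −0.42 ± 0.28 in ADREX (adjusted p = 0.459) and 0.79 ± 0.28 in SHAM (adjusted p = 0.155). The difference between these effects, −1.20 ± 0.39, had an unadjusted p of 0.00703 and an adjusted p of 0.223. The order of means was ADREX air, SHAM ozone, ADREX ozone and SHAM air, with overlap between neighbours except between ADREX ozone and SHAM air.

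The Klf4 call in air was lost without ADREX air 65 (adjusted p = 0.0764), without ADREX air 66 (0.0649), without SHAM air 4 (0.0729) and when only the groups compared entered the fit (0.0919). In these fits, which had fewer libraries, calls over all genes fell from 451 to 255, 194, 206 and 212. For Klf4 edgeR gave an adjusted p of 0.0366 and DESeq2 gave 0.00799. Markers of bile duct cells, the epithelium that lines the bile passages, had a summed level that was also higher in every ADREX air library than in every SHAM air library. The sum over 5 markers was 15.3 to 21.9 RPM in ADREX air and 5.14 to 9.49 RPM in SHAM air (exact permutation p = 0.0286, adjusted p = 0.257). Under ozone the sums were 13.4 to 20.2 RPM in ADREX and 10.7 to 18.1 RPM in SHAM. Sinusoidal endothelial markers summed to 316 to 705 RPM in ADREX air and 453 to 504 RPM in SHAM air. The part of these cells in the Klf4 result was not tested.

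**Figure D2:**
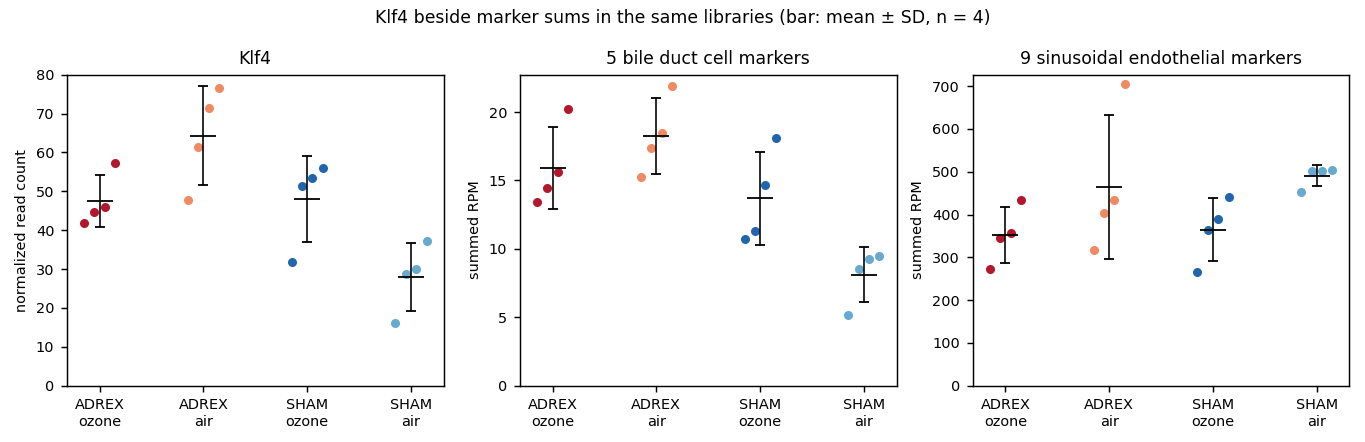
Klf4 in normalized read counts, beside the summed RPM of 5 bile duct cell markers and of 9 sinusoidal endothelial markers, with 1 point per library, ordered by value within a group, and bars for mean ± SD (n = 4). Klf4 and the bile duct sum are both lowest in SHAM air, at 16.1 to 37.2 counts and 5.14 to 9.49 RPM, while the endothelial sum is not.

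Klf2, which shear stress induces in endothelium, had 18.7 to 40.0 normalized counts in ADREX ozone, 19.1 to 51.4 in ADREX air, 17.4 to 28.0 in SHAM ozone and 4.01 to 28.8 in SHAM air. These rest on 2 to 42 reads. In air the log2 difference of ADREX from SHAM was 1.34 ± 0.48 (adjusted p = 0.142), and it passed without SHAM air 3 (1.77, adjusted p = 0.0307). Without SHAM air 3, calls over all genes rose from 451 to 1004. Klf6 had 129, 117, 125 and 73.4 normalized counts in ADREX ozone, against 184, 150.4, 204 and 158 in ADREX air. The groups did not overlap, yet the log2 change of −0.66 ± 0.23 did not pass (unadjusted p = 0.01, adjusted p = 0.174). In SHAM rats Klf6 had 86.1 to 113 normalized counts with ozone and 78.3 to 160.0 in air (log2 −0.24 ± 0.23, adjusted p = 0.593).

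RefSeq promoter sequences on build GRCr8 were at hand for 7 members and were cut to windows of the 250 bases before 1 start of a gene. By RefSeq's gene spans those of Klf6 and Klf9 lie wholly before the gene and that of Klf11 lies before it in part. Those of Klf3, Klf4, Klf12 and Klf15 lie within the gene, so they are not described. Klf11 and Klf6 are shown because their sequence before the gene holds the GC box, GGGCGG on either strand, which proteins of the family bind. That of Klf9 held 0. Of all 33469 windows of 250 bases 30.5% held the box, at a median GC content of 51.2%. GC content was 67.2% in the window of Klf6 and 79.2% in the full 250 bases of Klf11, so that share is not a like comparison. Capitals mark the GC box, of which Klf11 had 2 in 114 bases (chr6:47014198-47014311, plus strand) and Klf6 had 1 in 250 bases (chr17:69458479-69458728, minus strand).
Klf11: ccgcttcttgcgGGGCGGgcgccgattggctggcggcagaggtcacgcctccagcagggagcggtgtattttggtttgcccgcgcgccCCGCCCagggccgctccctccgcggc
Klf6: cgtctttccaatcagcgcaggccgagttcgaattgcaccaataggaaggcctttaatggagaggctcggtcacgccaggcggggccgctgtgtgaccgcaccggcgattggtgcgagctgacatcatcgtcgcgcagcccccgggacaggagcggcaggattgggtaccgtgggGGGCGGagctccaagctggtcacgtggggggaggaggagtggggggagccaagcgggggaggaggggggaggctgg
The letters TGTTCT, an arm of the glucocorticoid response element, were on either strand of 17.5% of all windows. They were in 0 of the 3 sequences of Klf6, Klf9 and Klf11, which says only that these letters are not in these stretches. The E-box CACGTG, bound by clock proteins and found in 5.59% of all windows, was in that of Klf6.

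Members whose groups did not overlap were Klf12 for ozone in SHAM, where 11.1% of all genes tested had no overlap, and Klf12 and Klf6 for ozone in ADREX, where 9.97% had none. They were Klf4 for adrenalectomy in air (9.26% of all genes) and Klf10 for adrenalectomy under ozone (20.5% of all genes).

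Klf10, Klf11, Klf9 and Klf13 encode repressors that recruit the corepressor Sin3a. Klf10 was lower in adrenalectomized rats under ozone. ADREX ozone libraries had 188, 141, 208 and 319.5 normalized counts, against 403, 455, 553 and 437 in SHAM ozone. The groups did not overlap, and the means were 214 ± 75.6 and 462 ± 64.3 (log2 −1.16 ± 0.33, adjusted p = 0.0293).

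In air ADREX libraries had 389.6, 162, 341 and 176 normalized counts of Klf10, against 345, 841, 373 and 405 in SHAM. The groups overlapped, and SHAM air 2 was far above the rest of its group. The log2 difference was −0.88 ± 0.33 (unadjusted p = 0.0154, adjusted p = 0.149). Ozone gave log2 changes of −0.27 ± 0.33 in ADREX and 0.00 ± 0.33 in SHAM (adjusted p = 0.709 and 0.997). The order of means was SHAM air, SHAM ozone, ADREX air and ADREX ozone, and the break without overlap lay between SHAM ozone and ADREX air.

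The Klf10 call under ozone was lost when the neural transcripts were taken into account. With the summed neural markers as a covariate the log2 difference was −0.97 (adjusted p = 0.0876), and without libraries 82, 18 and 81 it was −0.83 (adjusted p = 0.291). Calls over all genes fell from 1601 to 1089 and 479 in these fits, and the second had fewer libraries. Whether neural transcripts caused the loss was not tested. The call was also lost without ADREX ozone 81 (0.0628), 82 (0.0887) or 83 (0.0563). Leaving out SHAM ozone 17 (0.0551), 19 (0.0739) or 20 (0.0653) lost it too. Log2 differences without these single libraries were −0.98 to −1.22, and calls over all genes fell from 1601 to between 787 and 1238. EdgeR gave an adjusted p of 0.0316 and DESeq2 0.0088. The 10 lymphocyte markers summed to 34.1 to 44.6 RPM in ADREX ozone and 16.7 to 31.3 RPM in SHAM ozone (exact permutation p = 0.0286, adjusted p = 0.257), and the part of these cells in the Klf10 result was not tested. Scaling by TMM moved the median log2 difference of all genes under ozone to 0.01, against 0.11 as deposited, and left Klf10 called.

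Klf11, a relative of Klf10 that also acts in glucose metabolism, passed in no comparison. In air ADREX libraries had 364, 383, 222 and 271 normalized counts, against 152, 196, 278 and 130.4 in SHAM. The groups overlapped, and the log2 difference of 0.74 ± 0.24 missed the threshold (unadjusted p = 0.00645, adjusted p = 0.0987). It passed without ADREX air 67 (adjusted p = 0.041), without SHAM air 3 (0.0239) and with array quality weights (0.0127). Calls over all genes rose from 451 to 824, 1004 and 1456 in these fits. Under ozone the difference was −0.05 ± 0.24 (adjusted p = 0.899), with 253 ± 55.6 normalized counts in ADREX and 259.7 ± 30.8 in SHAM. The ozone changes were −0.28 ± 0.24 in ADREX and 0.51 ± 0.24 in SHAM, and their difference was −0.79 ± 0.33 (unadjusted p = 0.0304, adjusted p = 0.336).

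Klf9 did not pass in any comparison. ADREX ozone libraries had 1505, 588, 930.3 and 1693 normalized counts, against 2271, 1568, 2088 and 2236 in SHAM ozone, and the groups overlapped. The log2 difference was −0.89 ± 0.33 (unadjusted p = 0.0141, adjusted p = 0.0787). It passed without ADREX ozone 84 (adjusted p = 0.0423), without ADREX air 67 (0.0463), which enters through the shared estimate of spread, and with array quality weights (0.0216). Calls over all genes in these fits were 1532, 1805 and 3414, against 1601 as reported. With the neural covariate the adjusted p was 0.217.

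In air Klf9 had 1308, 749.8, 2433 and 1345 normalized counts in ADREX, against 2141, 1725, 1685 and 1764 in SHAM. The highest and the lowest of these 8 values were both ADREX libraries, and the log2 difference was −0.44 ± 0.33 with a 95% interval of −1.13 to 0.24. The log2 change with ozone was −0.30 ± 0.33 in ADREX and 0.15 ± 0.33 in SHAM, neither past the threshold (adjusted p = 0.676 and 0.834). The 95% interval in SHAM was −0.54 to 0.84.

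Klf13, a factor known from T lymphocytes, averaged 10.9 normalized counts over all libraries, under the filter of 14.7, and was not tested. It had 5.72, 0, 1.10 and 15.8 normalized counts in ADREX ozone, 8.24, 2.12, 4.47 and 2.45 in ADREX air, 7.55, 11.0, 7.62 and 14.7 in SHAM ozone, and 16.4, 39.6, 5.00 and 32.1 in SHAM air. All neighbours in the order of its means overlapped. With no filter, over 20381 genes, the log2 difference of ADREX from SHAM was −2.0 ± 0.77 in air (adjusted p = 0.231) and −1.47 ± 0.77 under ozone (adjusted p = 0.251).

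Klf15, the member most tied to amino acid breakdown and glucose synthesis, had higher means after adrenalectomy in air and under ozone, neither past the threshold. In air ADREX libraries had 382, 285, 201 and 582 normalized counts, against 296, 316, 149 and 221 in SHAM (log2 0.51 ± 0.31, 95% interval −0.14 to 1.16, adjusted p = 0.349). Under ozone ADREX libraries had 572, 467, 457 and 452, against 436, 231, 478 and 347 in SHAM (log2 0.43 ± 0.31, 95% interval −0.22 to 1.08, adjusted p = 0.352). The 4 ADREX ozone libraries lay closer together than those of any other group, and the groups overlapped in both comparisons.

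With ozone Klf15 did not pass in either surgery. The log2 change was 0.53 ± 0.31 in ADREX and 0.61 ± 0.31 in SHAM (adjusted p = 0.386 and 0.298), and the difference of −0.08 had a 95% interval of −0.997 to 0.834. The order of means was ADREX ozone at 487 ± 56.8, SHAM ozone at 373 ± 109, ADREX air at 363 ± 164 and SHAM air at 245 ± 76.4 normalized counts, and all neighbours overlapped.

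**Figure D3:**
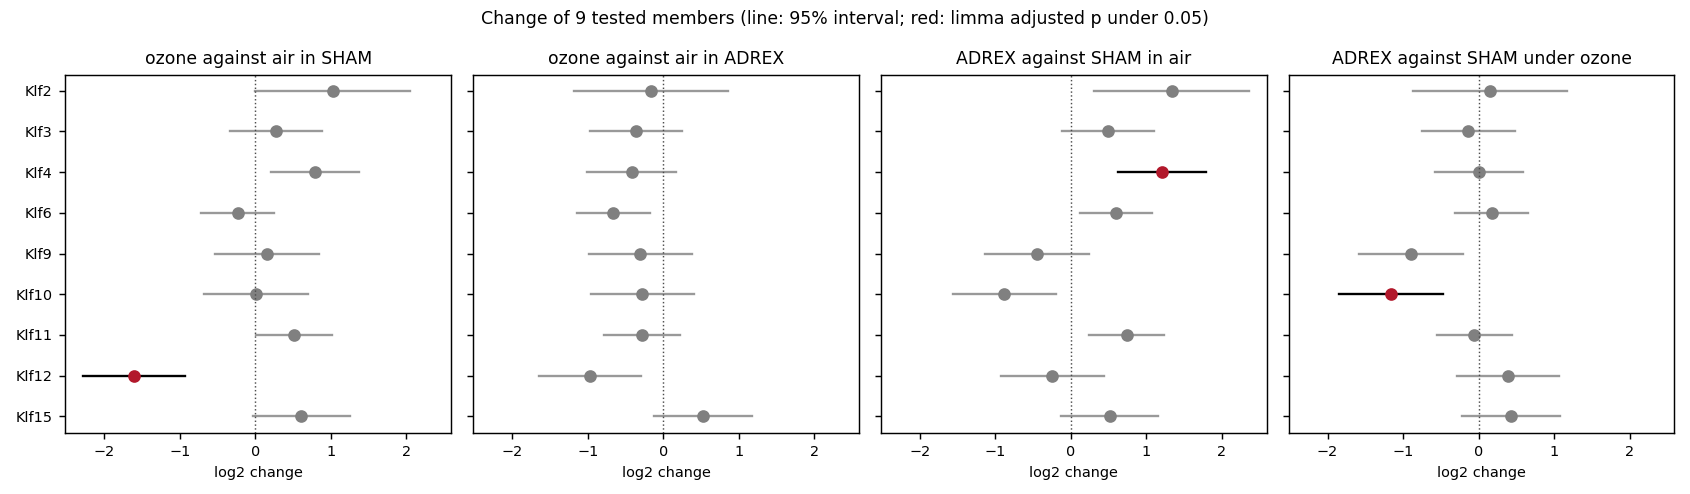
Log2 change of the 9 tested genes in 4 comparisons, with 95% intervals, and with limma adjusted p under 0.05 in red. Klf12 at −1.61 for ozone in SHAM, Klf4 at 1.21 for adrenalectomy in air and Klf10 at −1.16 for adrenalectomy under ozone are the points in red.

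The 9 tested members had a median log2 change of −0.30 for ozone in ADREX and 0.27 for ozone in SHAM, beside medians of 0.06 and 0.01 over all genes. With ozone in ADREX 1 member was above 0 and 8 were below, and in SHAM 7 were above and 2 below. For adrenalectomy the medians were 0.51 in air and 0.00 under ozone, beside 0.04 and 0.11 over all genes. These comparisons share libraries in pairs. Across the 16 libraries the members most alike were Klf9 and Klf10 (Pearson's r = 0.72 on the log2 scale), and the least alike were Klf2 and Klf10 (r = −0.51). The libraries share depth and neural content, so these are descriptions.

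The genes whose log2 values ran closest to a called member over the 16 libraries were also described. For Klf12 they were Fnip2 (r = 0.91), which encodes a folliculin partner, the nuclear receptor corepressor gene Nrip1 (r = 0.90) and Tbc1d5 (r = 0.89). Fnip2 averaged 1148 normalized counts in ADREX ozone, 1766 in ADREX air, 796.6 in SHAM ozone and 1851 in SHAM air. For Klf4 they were Epcam, an epithelial adhesion gene that is also among the bile duct markers (r = 0.89), Marveld1 (r = 0.89) and the small Maf gene Mafk (r = 0.83). Epcam averaged 119 normalized counts in ADREX ozone, 166 in ADREX air, 108 in SHAM ozone and 77.3 in SHAM air. Since Epcam enters the bile duct marker sum, its likeness to Klf4 is not separate from that sum. For Klf10 they were Faah, which degrades anandamide (r = 0.89), Ceacam1, a cell adhesion gene that acts in insulin clearance (r = 0.88), and Ttc7a (r = 0.88).

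Among 16 other Klf and Sp genes, 15 were in the table and 6 were tested. Sp4, an activator related to Sp1, was higher in ADREX air than in SHAM air, at 55.6 ± 9.27 and 26.4 ± 6.81 normalized counts (log2 1.06 ± 0.28, adjusted p = 0.0443), a call that edgeR did not make. That was 1 of 6, beside 3.53% of all genes. In the other 4 comparisons limma called 0 of the 6, beside 0.109% to 12.5% of all genes. For ozone in ADREX edgeR called 0 and DESeq2 2, beside 49 and 570 of all 12791 genes. For adrenalectomy under ozone each of these 2 tools called 1, beside 1585 genes by edgeR and 2193 by DESeq2. Both called 0 for ozone in SHAM and for the difference between the ozone effects. A raw p below 0.05 was found for 2 of 6 for ozone in SHAM and in ADREX, beside 18.4% and 17.8% of all genes. It was 4 of 6 for the difference between the ozone effects, beside 12.9% of all genes. For adrenalectomy under ozone it was 1 of 6, beside 31.2% of all genes. Klf14 had 0 to 1 reads in every library.

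Of 14 cofactors and regulators of the family, all tested, limma called 1 for adrenalectomy in air, beside 3.53% of all genes. The histone deacetylase gene Hdac2 was lower in ADREX in air (log2 −0.96 ± 0.18, adjusted p = 0.0076). Of 9 genes tied to KLF15, Prodh, the first enzyme of proline breakdown, was lower in ADREX in air (−1.39 ± 0.30, adjusted p = 0.0174) and under ozone (−1.13 ± 0.30, adjusted p = 0.0222). Gpt, an alanine aminotransferase, was lower in ADREX under ozone (−1.52 ± 0.35, adjusted p = 0.0108). Limma thus called 1 of the 9 in air and 2 under ozone, beside 3.53% and 12.5% of all genes. Klf15 itself did not differ past the threshold in either comparison. The list medians were −0.18 in air and −0.71 under ozone.

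Of 11 genes of the TGF-beta pathway, in which KLF10 and KLF11 act, the ligand genes Tgfb1 and Tgfb3 were higher in ADREX in air (log2 0.72 ± 0.19 and 1.36 ± 0.31, adjusted p = 0.0486 and 0.0251), and edgeR did not call Tgfb1 there (adjusted p = 0.0604). Tgfb1 was higher in ADREX under ozone too (0.84 ± 0.19, adjusted p = 0.0101). These were 2 of 11 in air and 1 of 11 under ozone, beside 3.53% and 12.5% of all genes. Of 11 glucocorticoid receptor and response genes, Fkbp5, Dusp1 and Zbtb16 were lower in ADREX under ozone (log2 −2.56 ± 0.30, −1.53 ± 0.44 and −2.79 ± 0.61, adjusted p = 0.000211, 0.0329 and 0.00793). In air Sgk1 was higher in ADREX (2.59 ± 0.61, adjusted p = 0.0284). These were 3 of 11 under ozone and 1 of 11 in air, beside 12.5% and 3.53% of all genes. Of 7 endothelial genes that KLF2 and KLF4 regulate, 5 were tested. Limma and edgeR called 0 in all 5 comparisons, beside 0.109% to 12.5% of all genes by limma. DESeq2 called 1 in each adrenalectomy comparison, beside 835 of all 12791 genes in air and 2193 under ozone. A raw p below 0.05 was found for 3 of 5 for ozone in SHAM and for adrenalectomy in air, beside 18.4% and 20.2% of all genes. It was 0 of 5 for ozone in ADREX, beside 17.8%. For the difference between the ozone effects and for adrenalectomy under ozone it was 1 of 5, beside 12.9% and 31.2%.

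Klf9, Klf10 and Klf15 are rhythmic in liver, and 15 of 16 clock genes were tested. In air Dbp, Per2, Per3 and Tef were higher in ADREX, by 2.64, 2.78, 3.10 and 1.13 on the log2 scale, while Arntl and Npas2 were lower, at −1.97 and −3.27 (adjusted p = 0.00104 to 0.0339). Of these 6, edgeR did not call Arntl and Dbp (adjusted p = 0.0635 and 0.0633). Under ozone Dbp, Per3 and Tef were higher in ADREX and Arntl, Clock and Npas2 were lower. Limma thus called 6 of 15 in each comparison, beside 3.53% of all genes in air and 12.5% under ozone. The part of clock phase in the Klf10 result was not tested. Over the 70 tested genes of these lists limma called 1 for ozone in SHAM (Fkbp5), beside 1.58% of all genes. EdgeR called 1 and DESeq2 7, beside 176 and 536 of all 12791 genes. The raw p was below 0.05 for 16 of 70, beside 18.4% of all genes. For ozone in ADREX limma and edgeR called 0, beside 0.125% of all genes by limma and 49 of 12791 genes by edgeR. DESeq2 called 5 of 70, beside 570 of all 12791 genes. A raw p below 0.05 was found there for 9 of 70, beside 17.8% of all genes. For the difference between the ozone effects 0 passed by limma or edgeR, beside 0.109% of all genes by limma and 24 of 12791 by edgeR. By DESeq2 1 of 70 passed, beside 248 of all 12791 genes. There 10 of 70 had a raw p below 0.05, beside 12.9% of all genes.

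**Figure D4:**
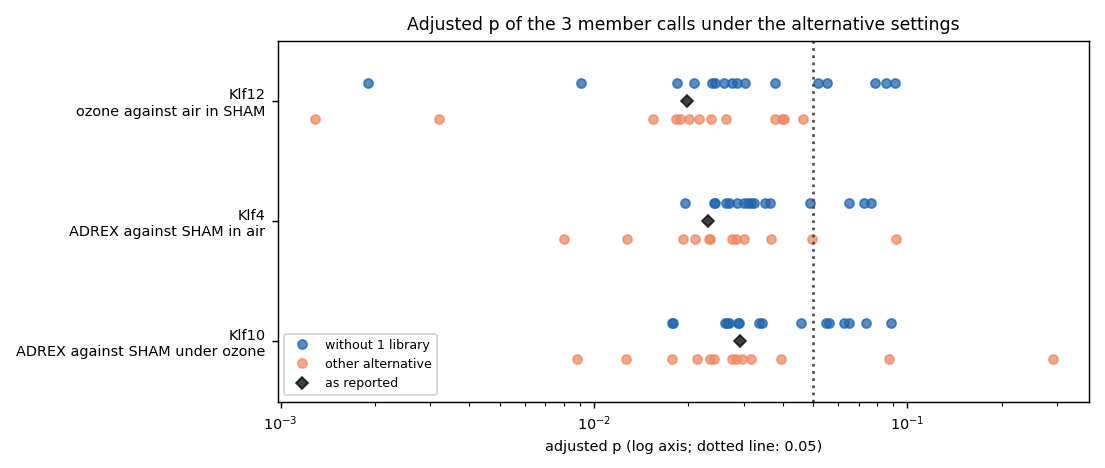
Adjusted p of the 3 called changes on a log axis, as reported and under alternative settings, with the threshold of 0.05 dotted. Between 3 and 6 of the 16 fits without 1 library lie above the threshold for each gene.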

How the data were processed

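Liver mRNA libraries were sequenced on a NextSeq 500, per the labels' protocols. Per the submitters' processing notes, the authors used Partek and DESeq2 with build rn6. Not given in the sources used here: versions, aligner, counter, annotation. Values as deposited by the authors are a signal per gene symbol, namely whole reads over a size factor of the library. Dividing each column by its smallest step gave whole reads for 100% of values (within 0.01, largest deviation 0.000537). Groups follow the titles. The treatment field gives ozone for the 4 ADREX air libraries, against their titles and the series design. No column was left out.

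Values were transformed as log2(value + 1), so folds of low genes are understated. Genes with a mean of at least 14.7 (1 per 1000000 of the median column total) entered a two-sided limma-trend test (limma 3.58.1, R 4.3.3). The model had 4 group means over 16 libraries, with 12 residual degrees of freedom and 4.4 from the prior. Benjamini-Hochberg adjustment ran over 12791 genes. All adjusted p-values are limma's unless named. Recovered reads went into edgeR 4.0.16 and DESeq2 1.42.0 as alternatives, beside other pseudocounts, filters, scalings, array weights, a neural covariate and fits without single libraries. The scripts were tested on simulated data. Members, lists and tests were chosen with earlier results of these data known. All members are named, list genes where they passed (1 such result is not reported here), and the 3 most alike genes per called member, leaving out placeholder symbols. The members matched current rat symbols in RefSeq.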

Additional observations from a re-analysis of the deposited data

Results flagged for a closer look

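In 3 of 40 groups of 4 libraries a member had 1 library far from the others, where the gap to the nearest library, as a share of the group's range, was above Dixon's critical value. Chance gives about 1 such group in 20. Klf12 stood at 427 normalized counts in SHAM ozone library 19, against 148 to 166 in the other 3 libraries. Klf10 stood at 841 in SHAM air library 2, against 345 to 405 in the others. Klf15 stood at 572 in ADREX ozone library 81, against 452 to 467 in the others. Without SHAM air 2 the Klf10 difference of ADREX from SHAM in air was −0.59 on the log2 scale (adjusted p = 0.413), against −0.88 with it.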

How the results depend on the processing

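The number of members called for adrenalectomy in air, 1 as reported, was 2 at an adjusted p under 0.1 and 2 with array quality weights, each time adding Klf11. It was 0 when only the groups compared entered the fit and 0 with the stricter filter, which leaves Klf4 out. Without single libraries it ranged from 0 to 3. For adrenalectomy under ozone, 1 as reported, it was 2 at an adjusted p under 0.1 and 2 with array quality weights, each time adding Klf9. It was 0 with the neural covariate and 0 without the 3 libraries highest in neural markers, and ranged from 0 to 2 without single libraries. For ozone in SHAM, 1 as reported, it ranged from 0 to 1. For ozone in ADREX and for the difference between the ozone effects it was 0 in every setting run. Of 1331 alternative values of the 45 member results, 1304 stayed on their side of the threshold, 17 lost the call and 10 gained it. The 17 losses all fell on the 3 calls, with 8 of 30 alternatives for Klf10, 5 of 30 for Klf12 and 4 of 29 for Klf4. The sign changed in 0 values with a call before or after. Results that stayed uncalled did change sign, such as Klf4 under ozone in 8 of 29 and Klf10 for ozone in SHAM in 7 of 30. Beyond the fewer libraries or genes that some settings use, the cause was not tested.

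Counted over all genes, ozone in ADREX gave 16 calls by limma, 49 by edgeR and 570 by DESeq2, and 0 to 50 by limma without single libraries. Ozone in SHAM gave 202, 176 and 536, and 38 to 658. The difference gave 14, 24 and 248, and 3 to 33. Adrenalectomy gave 451, 378 and 835 in air, and 194 to 1004, and it gave 1601, 1585 and 2193 under ozone, and 787 to 1848. Under ozone limma called 772 genes higher and 829 lower in ADREX, against 538 higher and 1132 lower with TMM scaling. No paired analysis was possible because the groups share no replicate numbers. Klf2, Klf4 and Klf13 are limited most by depth, at 42, 65 and 33 reads or fewer per library.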
